A study of Homo sapiens with 8 samples.

Results

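The genes described here encode human N-terminal acetyltransferases or their auxiliary subunits, and they are not the full set: NAA10, NAA15, NAA50, NAA20, NAA25, NAA30, NAA35 and NAA40. They were taken by name from the table of a genome-wide knockout screen, and they are 8 of the 17761 genes that could be tested. The family was chosen by the values of NAA10 in earlier results of these data, in the comparison of untreated cells with the starting cells and in that of erlotinib-treated with untreated cells. NAA10 is therefore described without a test, and tests are given for the 7 other genes only.

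The cells were PC9, a lung adenocarcinoma line driven by a mutant epidermal growth factor receptor (EGFR), and every group expressed the Cas9 nuclease and carried TKOv3, a pooled library with up to 4 guides for each gene. Cells received 10 µM erlotinib (a reversible EGFR inhibitor) for 72 h, 0.1 µM osimertinib (a covalent EGFR inhibitor) for 72 h, or no EGFR inhibitor for 72 h (untreated, vehicle only), and a last group was collected at the start of treatment (T0). Each of the 4 groups had 2 libraries, and the reads counted the guides in genomic DNA, so a value is the abundance of cells that carry a guide and is not an expression level. Whether a guide had cut its gene was not measured. By the study's methods, untreated cells were passaged during the 72 h, and live cells were collected at the end. No passage is named for treated cells, so drug and passage cannot be told apart.

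Most human proteins are acetylated on their first residue while they are still being made. NatA, built from the catalytic NAA10 and the ribosome anchor NAA15, modifies small residues such as serine and alanine once the initiator methionine has been removed, and NAA50 (NatE) rides on the same complex with its own preference for methionine starts. NatB (catalytic NAA20, auxiliary NAA25) modifies methionine followed by an acidic residue or its amide, NatC (catalytic NAA30, auxiliary NAA35) modifies methionine followed by a hydrophobic residue, and NAA40 (NatD) works alone on histones H2A and H4.

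The table held 32 guides against these genes, and 30 were kept. Guide 3 of NAA10 and guide 3 of NAA50 (guides are numbered in table order) were left out because they were scarce in every library, at 9 to 36 reads and 11 to 35 reads. Total reads per library lay between 32093833 and 39197691, and the median guide had 445 to 549 reads. The 2 libraries of a group correlated at Pearson's r = 0.964 to 0.978 across guides and differed by more than counting noise in every group. A gene's log2 fold change (L2FC) is the median over its guides after subtracting the median of the non-targeting guides, and its error is the SD between its guides.

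Without drug, cells carrying guides against these genes became scarcer over 72 h relative to non-targeting guides, most for the catalytic subunit of NatA and least for NAA40. The summed normalised reads of NAA10 were 37.3% and 38.7% of the T0 mean in the 2 untreated libraries, against 100.1% and 99.9% in the T0 libraries. Its L2FC was -1.74 ± 0.41 (SD, n = 3 guides), and the guides spanned -1.91 to -1.13. Non-targeting guides stood at 113% of T0 in both untreated libraries, so the loss of these knockouts was not shared by cells with an inert guide.

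NAA15, the subunit that holds NAA10 on the ribosome, lost less. Its reads were 71.1% and 60.9% of T0 in untreated cells, and its L2FC was -0.83 ± 0.35 (SD, n = 4 guides). NAA15 guides ranged from -1.07 to -0.26, and the 3 kept guides of NAA10 from -1.91 to -1.13. With no guide left out, the L2FC of NAA10 was -1.43. The family was chosen by this value of NAA10, so the gap to NAA15 is partly built in and is a description. NAA50 fell by 0.54 on the log2 scale, with reads at 74.2% and 74.3% of T0 in untreated cells and guides from -1.12 to -0.43.

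The paired subunits of NatB gave near-equal losses. NAA20 had 60.4% and 64.9% of its T0 reads in untreated cells and NAA25 had 56.8% and 58.8%. The L2FC was -1.09 ± 0.53 for NAA20 and -0.92 ± 0.17 for NAA25 (SD, n = 4 guides each). The wider error of NAA20 came from guide 4, at -0.08, whereas guides 1, 2 and 3 each passed alone (guides 1 and 3 at -1.19 and -1.20). All 4 guides of NAA25 lay at -1.20 to -0.82.

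Losses of the NatC subunits were also alike. NAA30 had 71.8% and 66.8% of its T0 reads in untreated cells, and NAA35 had 73.1% and 71.4%. The L2FC was -0.82 ± 0.51 for NAA30 and -0.72 ± 0.41 for NAA35 (SD, n = 4 guides each). In NAA30, 3 guides lay within -0.83 to -0.80 and guide 1 stood apart at 0.21. NAA35 was split evenly: guides 3 and 4 stood at -1.04 and -1.02, and guides 1 and 2 at -0.24 and -0.41. NAA40 had the smallest change of the family, -0.33 ± 0.20 (SD, n = 4 guides), with 90.2% and 85.8% of its T0 reads in untreated cells. Its 20 nearest tested neighbours on the chromosome had a median of -0.23, which leaves -0.10 for NAA40, and its L2FC was -0.21 without the second T0 library. By edgeR's F-test 0 of its 4 guides passed alone, with 1 at an unadjusted p under 0.05.

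All 7 genes besides NAA10 passed the test against non-targeting guides as lower in untreated than in T0 cells, each at an adjusted p of 0.000306 (fold changes from edgeR, empirical test, Benjamini-Hochberg adjustment over all genes). That test also called 66.2% of all genes lower, so passing it does not set these genes apart. The median L2FC was -0.82 over the 7 and -0.17 over all genes. Set against all targeting guides, which takes out the shift of all genes, 3.63% of genes were lower and 5 of the 7 were among them, namely NAA15 (adjusted p = 0.0272), NAA20 (0.00641), NAA25 (0.0189), NAA30 (0.0272) and NAA35 (0.047). NAA50 (adjusted p = 0.218) and NAA40 (0.661) did not pass it. Of the 27 kept guides of the 7 genes, 16 were lower one by one (edgeR quasi-likelihood F-test), where 5.92% of all guides were.

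**Figure D1:**
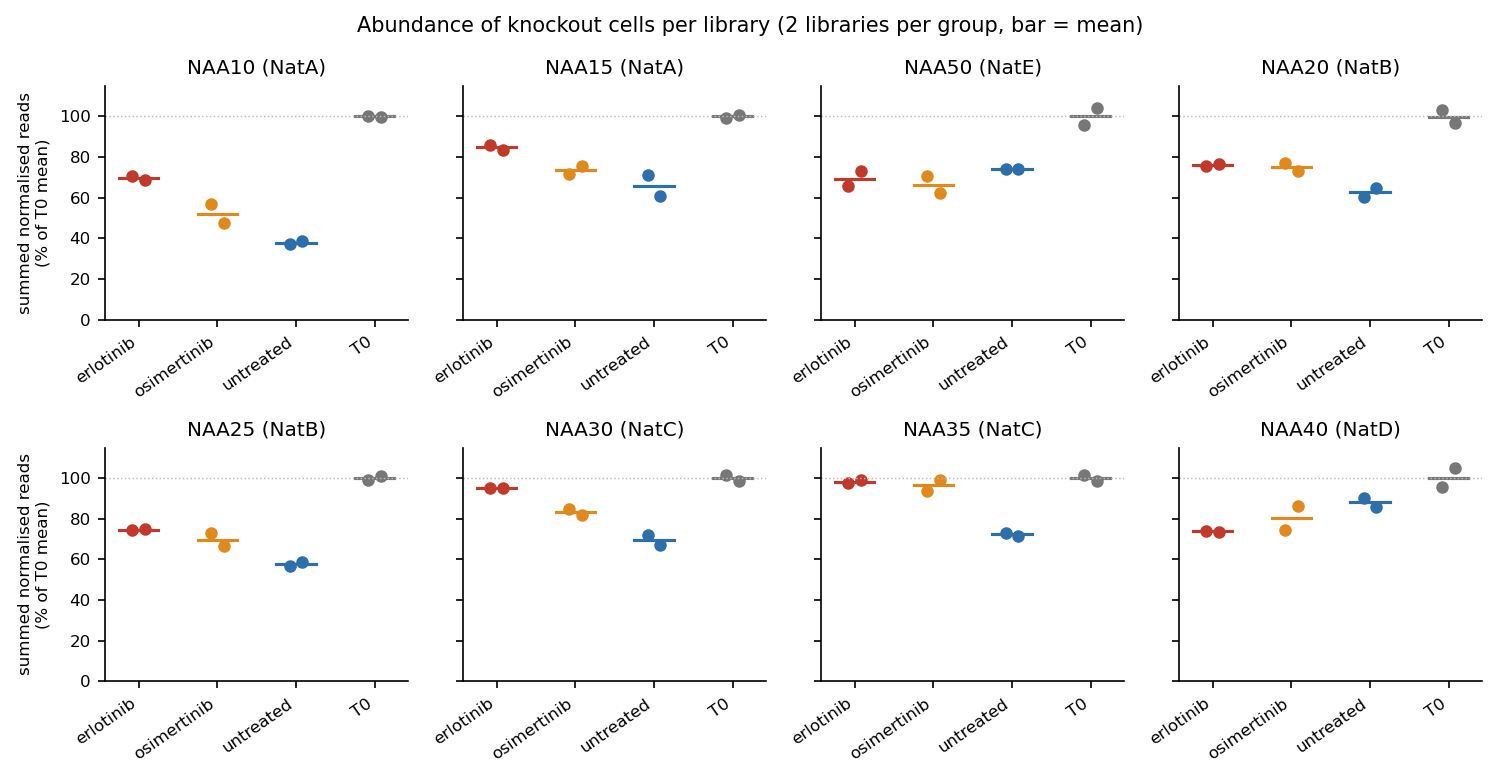
Summed normalised reads of each gene's kept guides in every library, as a percentage of the mean of the 2 T0 libraries (vertical axis), by group (horizontal axis); points are libraries and bars are group means. NAA10 stood at 37.3% and 38.7% in untreated cells and NAA35 at 97.3% and 98.9% in erlotinib-treated cells. NAA40 stood at 74.1% and 73.4% in erlotinib-treated cells and at 90.2% and 85.8% in untreated cells.

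With erlotinib, knockouts of NatB and NatC subunits were more abundant than without it, and knockouts of NAA40 were less abundant. Knockouts of NAA10, which was chosen by this value, were also more abundant. The summed reads of NAA10 were 70.9% and 68.8% of T0 in erlotinib-treated cells, against 37.3% and 38.7% in untreated cells. The L2FC of NAA10 was 1.06 ± 0.38 (SD, n = 3 guides). Guides 2 and 4 gave 1.06 and 1.17 and guide 1 gave 0.47. For guide 2, normalised reads were 515 and 486 in erlotinib-treated libraries and 237 and 245 in untreated libraries.

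For the NatC subunits, the loss seen without drug was much smaller with erlotinib. Non-targeting guides stood at 111.8% and 111% of T0 in erlotinib-treated cells. Relative to them, the L2FC against T0 was still -0.22 for NAA30 and -0.20 for NAA35. NAA35 stood at 97.3% and 98.9% of T0 in erlotinib-treated cells, against 73.1% and 71.4% in untreated cells, and NAA30 at 94.8% and 95.1%, against 71.8% and 66.8%. The L2FC was 0.49 ± 0.52 for NAA35 and 0.51 ± 0.35 for NAA30 (SD, n = 4 guides each; adjusted p = 0.00223 for each). The guides that had depleted were those that gained: guides 3 and 4 of NAA35 had an L2FC of 0.98 and 0.83, whereas guides 1 and 2 had -0.08 and 0.14. Guide 3 of NAA35, for example, had 706 and 690 normalised reads in erlotinib-treated cells, against 315 and 397 in untreated cells. In NAA30, guides 2, 3 and 4 gained 0.54, 0.47 and 0.60, while guide 1, which had not been lost, had -0.16. Since both comparisons use the untreated libraries, this match between them is partly built in.

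NatB knockouts regained a smaller part of their loss than NatC knockouts. NAA20 stood at 75.9% and 76.6% of T0 in erlotinib-treated cells and at 60.4% and 64.9% in untreated cells. NAA25 stood at 74.2% and 74.9% with erlotinib and at 56.8% and 58.8% without it. The L2FC was 0.38 ± 0.32 for NAA20 and 0.42 ± 0.09 for NAA25 (SD, n = 4 guides each; adjusted p = 0.00223 for each). NAA25 had the tightest guides of the family, 0.25 to 0.43. In NAA25 0 guides passed alone by edgeR's F-test after adjustment, and 3 of 4 had an unadjusted p under 0.05.

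Further members of the NatA assembly gave small or no gains. NAA15 stood at 86.0% and 83.7% of T0 in erlotinib-treated cells, against 71.1% and 60.9% in untreated cells, with an L2FC of 0.21 ± 0.23 (SD, n = 4 guides; adjusted p = 0.0343). That call rested on single libraries: without the second untreated library the L2FC was 0.09 (adjusted p = 0.594), and without the second erlotinib library the adjusted p was 0.0536. NAA50, at 65.9% and 73.0% of T0 with erlotinib and 74.2% and 74.3% without, did not pass (L2FC -0.16 ± 0.24, SD, n = 3 guides, adjusted p = 0.197).

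NAA40 differed in sign from NatB and NatC. Its reads were 74.1% and 73.4% of T0 in erlotinib-treated cells, against 90.2% and 85.8% in untreated cells. The L2FC was -0.28 ± 0.21 (SD, n = 4 guides; adjusted p = 0.00223), with guides 1, 2 and 3 at -0.37, -0.20 and -0.43 and guide 4 at 0.04. Neighbouring genes moved the same way: the 20 tested genes nearest to NAA40 on its chromosome had a median of -0.12, which leaves -0.16 for NAA40. The call was lost without the second erlotinib library (L2FC -0.27, adjusted p = 0.0536) and against all targeting guides (adjusted p = 0.109).

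In total, 5 of the 7 genes besides NAA10 were called higher with erlotinib (6.66% of all genes were) and 1 lower (4.88% of all genes). Genes that cells need for growth were called higher more often than all genes. Of 179 core essential genes 55 were higher and 13 lower, and of 55 cytosolic ribosomal protein genes 19 were higher and 1 lower. Against all targeting guides, NAA20, NAA25, NAA30 and NAA35 were still higher (adjusted p of 0.00772 to 0.0243), beside 1.81% of all genes and 27 of the 179 core essential genes. The same 4 passed in limma fits to the gene levels, where the error is the spread between libraries. Of 17761 genes, limma called 728 higher, and 708 with each guide first set to its own T0 level. The median L2FC of the 7 was 0.38, and that of all genes was 0.00. One by one, 7 of the 27 guides were higher and 1 was lower (1.76% and 1.05% of all guides).

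**Figure D2:**
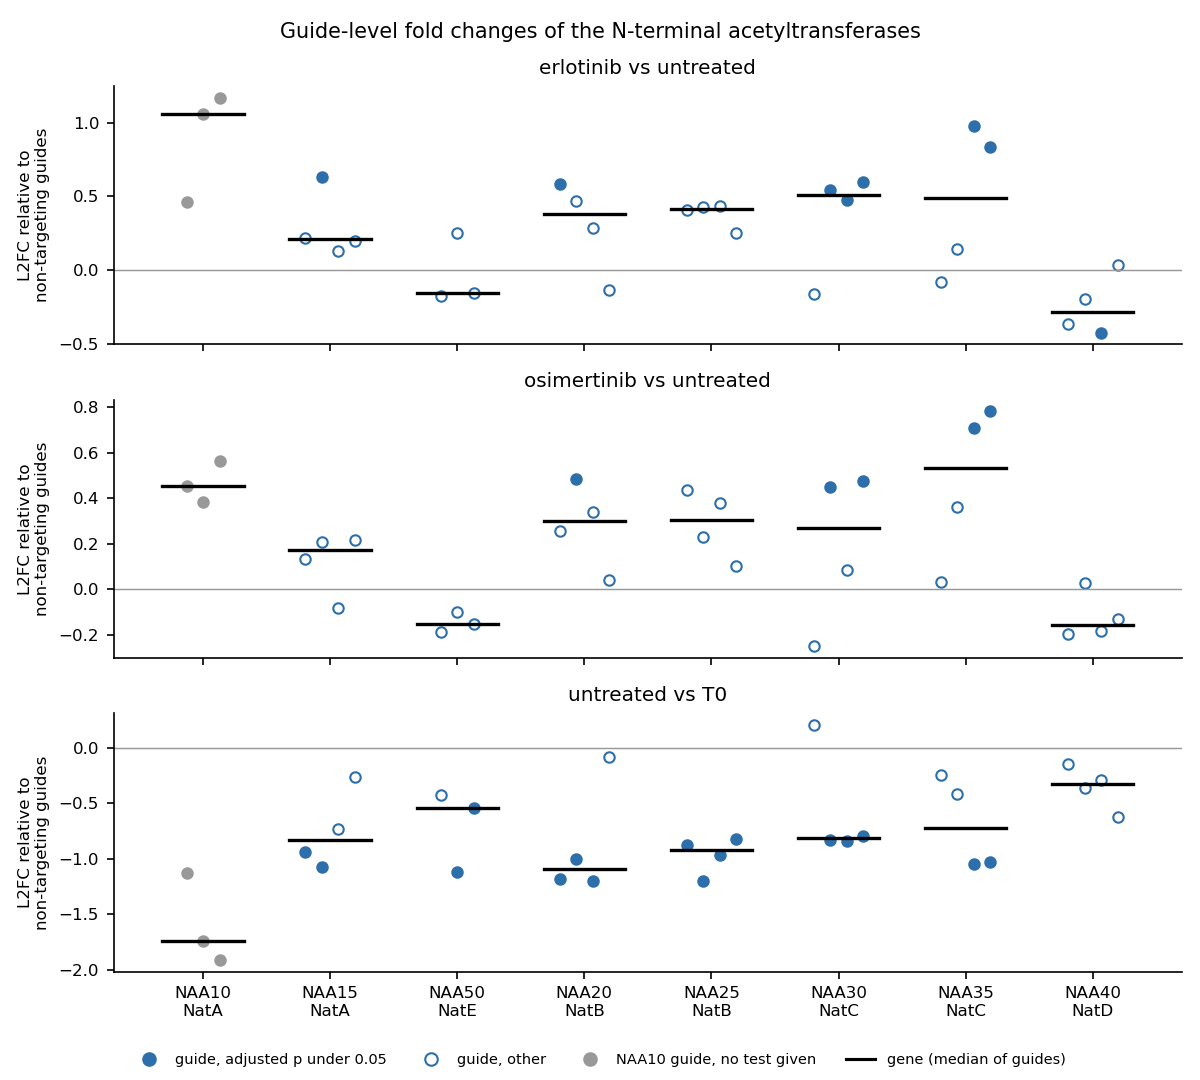
L2FC of each kept guide relative to non-targeting guides (vertical axis) by gene and complex (horizontal axis), in 3 comparisons; points are guides (filled where the guide passed the edgeR F-test, grey for NAA10) and black lines are gene medians. NAA35 holds a pair of guides at 0.98 and 0.83 with erlotinib and a pair near 0, whereas the 4 guides of NAA25 lie close together.

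Osimertinib gave called gains for the NatB and NatC subunits, and most of these calls rested on single libraries. NAA35 showed the largest, at 93.6% and 99.2% of T0 in osimertinib-treated cells, against 73.1% and 71.4% in untreated cells. Its L2FC was 0.53 ± 0.34 (SD, n = 4 guides; adjusted p = 0.00474), with guides 3 and 4 at 0.71 and 0.78 and guides 1 and 2 at 0.03 and 0.36. It passed against all targeting guides as well (adjusted p = 0.0302; 0.631% of all genes were higher) and in each fit that left out a library, at 0.48 to 0.57.

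NAA10 stood at 56.8% and 47.4% of T0 with osimertinib, against 37.3% and 38.7% in untreated cells, and its L2FC was 0.46 ± 0.09 (SD, n = 3 guides). The L2FC was 0.30 ± 0.19 for NAA20 (adjusted p = 0.014), 0.30 ± 0.15 for NAA25 (adjusted p = 0.014) and 0.27 ± 0.34 for NAA30 (adjusted p = 0.0288; SD, n = 4 guides each). In reads, NAA20 had 77.4% and 73.2% of T0 with osimertinib, NAA25 had 72.8% and 66.3%, and NAA30 had 84.8% and 82.0%. One by one, 5 of the 27 guides of the 7 genes besides NAA10 were higher, 2 of them of NAA35 (2.41% of all guides).

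Thus 4 of the 7 genes besides NAA10 were called higher with osimertinib, beside 4.78% of all genes, and 0 were called lower, beside 4.88%. Of the 179 core essential genes, 16 were called higher and 20 lower. At an unadjusted p under 0.05 the edgeR-based test had 5 of the 7 genes higher and 1 lower. In limma on gene levels 3 of the 7 were called higher (654 of 17761 genes were) and 0 lower (470 of 17761). With each guide first set to its own T0 level, limma called 4 higher (728 of 17761) and 0 lower (917 of 17761). Without the first osimertinib library NAA35 was the only one still called, since NAA20 gave 0.23, NAA25 gave 0.19 and NAA30 gave 0.19. Without the second osimertinib library NAA20 (0.21) and NAA25 (0.22) were lost, and NAA40 was called lower at -0.34. NAA20 was also lost without the first untreated library (0.21), and NAA30 without the second (0.22).

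NAA15, NAA50 and NAA40 did not pass with osimertinib. NAA15 had an L2FC of 0.17 ± 0.14 (adjusted p = 0.166) and passed at 0.30 without the first untreated library. NAA50 had -0.15 ± 0.05 (adjusted p = 0.331) and NAA40 had -0.16 ± 0.10 (adjusted p = 0.196; SD over 3 and 4 guides). The NAA40 reads, 74.6% and 86.1% of T0 with osimertinib, overlapped those of untreated cells, 90.2% and 85.8%. The neighbours of these genes had medians of -0.15 for NAA50 and -0.14 for NAA40, which left 0.00 and -0.02.

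**Figure D3:**
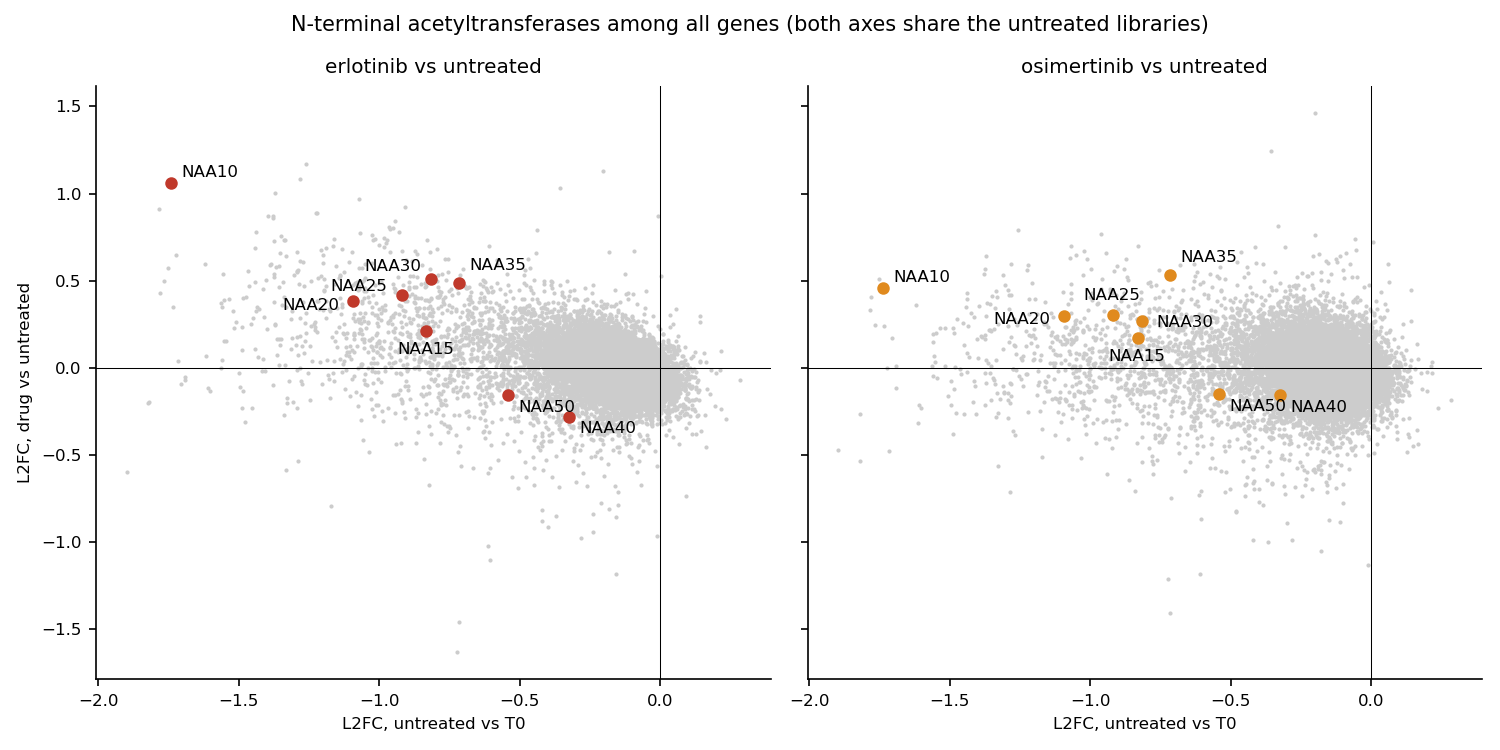
L2FC of every tested gene in untreated against T0 cells (horizontal axis) and in drug-treated against untreated cells (vertical axis), for erlotinib (left) and osimertinib (right); coloured points are the acetyltransferase genes and grey points the other genes. NAA10 lies at -1.74 and 1.06 in the erlotinib panel, and NAA40 and NAA50 lie below 0 on the vertical axis in both panels. Both axes use the untreated libraries, so their slope was not read as a result.

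Set against T0, the values with drug lay below 0 for each gene, at times no further than those of most genes. With erlotinib the L2FC was -0.65 ± 0.04 for NAA10, -0.49 ± 0.28 for NAA15, -0.67 ± 0.13 for NAA50, -0.54 ± 0.28 for NAA20, -0.53 ± 0.13 for NAA25, -0.22 ± 0.18 for NAA30, -0.20 ± 0.11 for NAA35 and -0.55 ± 0.09 for NAA40 (SD over 3 guides for NAA10 and NAA50 and 4 for the others). NAA10 had thus come close to NAA50 and NAA40. With osimertinib the L2FC was -1.33 ± 0.39 for NAA10 and -0.78 ± 0.39 for NAA15, and the others lay from -0.67 (NAA50 and NAA20) to -0.20 (NAA35). The median of all genes was -0.14 with either drug. NAA35 lay near it with both drugs and NAA30 with erlotinib. With osimertinib NAA30 was lower, at -0.33, and 17.1% of genes lay below it. All 7 genes besides NAA10 passed as lower than non-targeting guides in both comparisons, where 50.8% and 43.5% of all genes did for erlotinib and osimertinib. Against all targeting guides 0 of 7 passed for erlotinib (3.78% of genes; 5 at an unadjusted p under 0.05, and NAA40 was nearest at an adjusted p of 0.0858), and for osimertinib NAA15 alone passed (adjusted p = 0.0475; 3.29% of genes).

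To set these genes beside genes that cells need for growth in general, the loss of each knockout with drug was also scaled to that of core essential genes. The 179 core essential genes tested had a median L2FC of -0.65 with erlotinib and -0.78 with osimertinib against T0, and of -0.77 in untreated cells. Their loss with drug was thus 0.842 times the untreated loss for erlotinib and 1.01 times for osimertinib. NAA30 kept 0.272 and NAA35 0.284 of its untreated loss with erlotinib, and 0.405 and 0.284 with osimertinib. NAA10 kept 0.376 with erlotinib and 0.762 with osimertinib. NAA40 had 1.68 times its untreated loss with erlotinib. For NAA50 the ratio was 1.24, but its L2FC between erlotinib-treated and untreated cells did not pass and was -0.02 without the first erlotinib library and 0.05 with no guide left out.

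The growth-adjusted value is the L2FC of drug against T0 minus the untreated L2FC scaled by the core gene ratio. With erlotinib it was 0.81 for NAA10, 0.21 for NAA15, 0.38 for NAA20, 0.25 for NAA25, 0.47 for NAA30 and 0.40 for NAA35, and it was -0.22 for NAA50 and -0.27 for NAA40. NatB and NatC subunits had values as high with osimertinib: 0.44 for NAA20, 0.30 for NAA25, 0.50 for NAA30 and 0.52 for NAA35. NAA10 was at 0.44 with osimertinib and NAA15 at 0.06. These values are descriptions with no test, and they do not separate slower growth from fewer deaths.

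**Figure D4:**
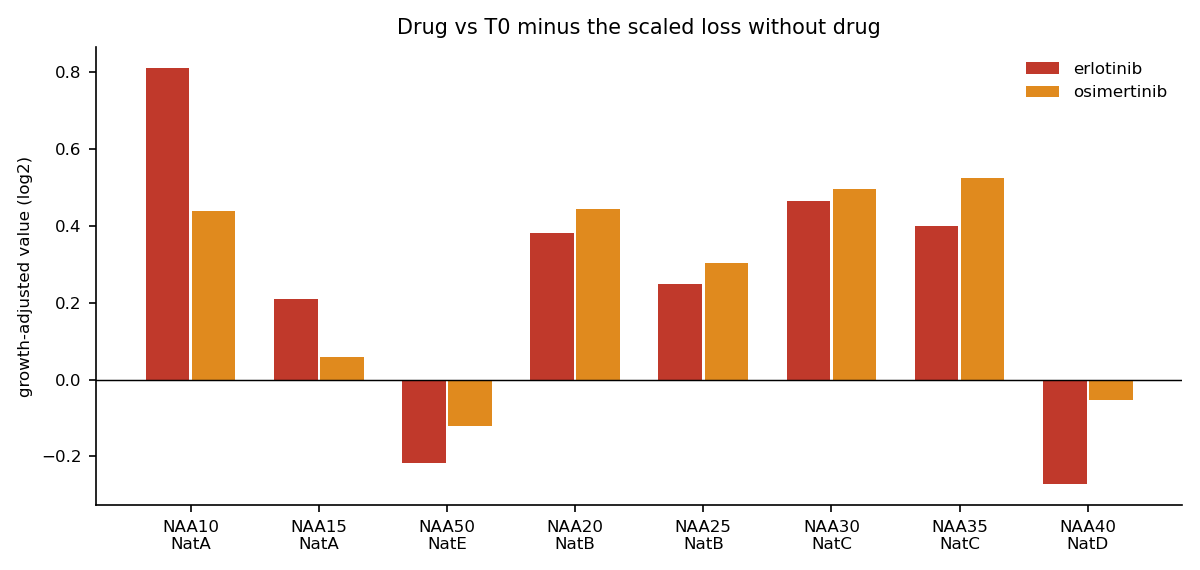
Growth-adjusted value (log2, vertical axis) of each gene (horizontal axis) for erlotinib and osimertinib; bars start at 0 and carry no error because the value has no test. NatB and NatC genes lie between 0.25 and 0.52 with both drugs, NAA10 lies at 0.81 and 0.44, and NAA50 and NAA40 lie below 0.

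Between the drugs, NAA10 knockouts were more abundant with erlotinib than with osimertinib, by an L2FC of 0.60 ± 0.37 (SD, n = 3 guides). The gap came from guides 2 and 4 (0.68 and 0.60), and guide 1 gave 0.01. None of the 7 other genes passed in the edgeR-based test (0 higher, 2.69% of all genes; 0 lower, 1.13%), with 1 higher and 1 lower at an unadjusted p under 0.05 and 0 by limma. NAA15 had an L2FC of 0.15 ± 0.19 (adjusted p = 0.217) and NAA40 of -0.20 ± 0.19 (adjusted p = 0.0879), and the others lay between -0.03 and 0.11. The 2 drugs were given at 10 µM and 0.1 µM, and dose and drug cannot be told apart.

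The subunits of one complex were compared by how alike their levels were over the 6 libraries of the 72 h groups, as the Euclidean distance between log2 levels relative to T0. NAA25 ranked 12th nearest to NAA20 among 17760 genes and NAA20 ranked 13th nearest to NAA25, and with each guide first set to its own T0 level (a choice made after seeing the data) they ranked 3rd and 5th. NAA30 was 66th nearest to NAA35, and NAA35 was 451st nearest to NAA30, which became 36th and 21st on that second measure. For the NatA pair, NAA15 was 1122nd nearest to NAA10 and NAA10 was 17472nd nearest to NAA15, which became 477th and 12382nd on the second measure. These distances use the untreated and erlotinib levels of NAA10, by which the family was chosen. The gap within the NatA pair is therefore partly built in. NAA50 and NAA40 ranked 42nd and 26th of each other on the first measure only, and 947th and 5895th on the second. All distances share the T0 libraries and are descriptions.

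The 5 genes nearest to NAA10 on the first measure were NEDD8, SNAPC2, NARS, CMPK1 and ACTL6A, at distances of 0.271 to 0.36. Those nearest to NAA15 were FOSL1, ITGA4, PTBP1, WDR18 and CCDC115, at 0.124 to 0.167. For NAA20 they were PAK1IP1, URB2, WDR82, RPL14 and PPA1, at 0.195 to 0.222. For NAA35 they were ENO1, ARIH1, PISD, GTF3C3 and PAICS, at 0.207 to 0.315. On the second measure the 5 nearest genes of each of these were all different ones (for NAA10 they were PMPCA, MVK, DBR1, URB1 and PSMG3), so the names depend on the measure.

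Close relatives of the NatA subunits had levels near the bulk of genes. NAA11, a paralogue of NAA10, had an L2FC of -0.20 ± 0.23 in untreated against T0 cells and -0.03 with erlotinib, and NAA16, a paralogue of NAA15, had -0.17 ± 0.19 and 0.03. HYPK, a small NatA partner, behaved otherwise. It fell by 0.58 without drug (adjusted p = 0.000306), and its L2FC was 0.59 ± 0.20 with erlotinib (adjusted p = 0.00223) and 0.40 ± 0.18 with osimertinib (adjusted p = 0.00474). Against all targeting guides HYPK passed with erlotinib (adjusted p = 0.00772) but not with osimertinib (0.0538) or without drug (0.119). Of the 6 other acetyltransferase genes and partners, HYPK was the only one called higher with either drug (6.66% of all genes with erlotinib and 4.78% with osimertinib).

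The row named NAA38 carries an ambiguous name. NAA38 now denotes the small auxiliary subunit of NatC, formerly LSMD1, but RefSeq also lists NAA38 as an older name of LSM8, a splicing factor subunit. The table had rows named NAA38 and LSMD1 and none named LSM8, and no guide sequences were used here, so which gene the NAA38 guides cut cannot be told. The row named NAA38 had an L2FC against T0 of -0.89 ± 0.24 with erlotinib, -1.07 ± 0.28 with osimertinib and -0.64 ± 0.11 without drug (SD, n = 4 guides each). Against untreated cells it gave -0.17 ± 0.22 with erlotinib (adjusted p = 0.0798) and -0.35 ± 0.33 with osimertinib (adjusted p = 0.00619), where NAA30 and NAA35 had values above 0. The osimertinib value came from guides 3 and 4 (-0.62 and -0.66), with guides 1 and 2 at -0.06 and -0.08, and it did not pass against all targeting guides (adjusted p = 0.0719).

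The row named LSMD1 did not follow NAA30 and NAA35 either. It had -0.03 ± 0.19 in untreated against T0 cells, and 0.00 with erlotinib and -0.07 with osimertinib against untreated cells (n = 4 guides; adjusted p of 0.658, 0.968 and 0.549). LSM2 to LSM7, which form rings with LSM8, were looked at after these values were seen. Their median L2FC against T0 was -1.20 with erlotinib, -1.22 with osimertinib and -1.15 without drug. Against untreated cells, 1 of the 6 (LSM3, 0.24) passed as higher with erlotinib, beside 6.66% of all genes.

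**Figure D5:**
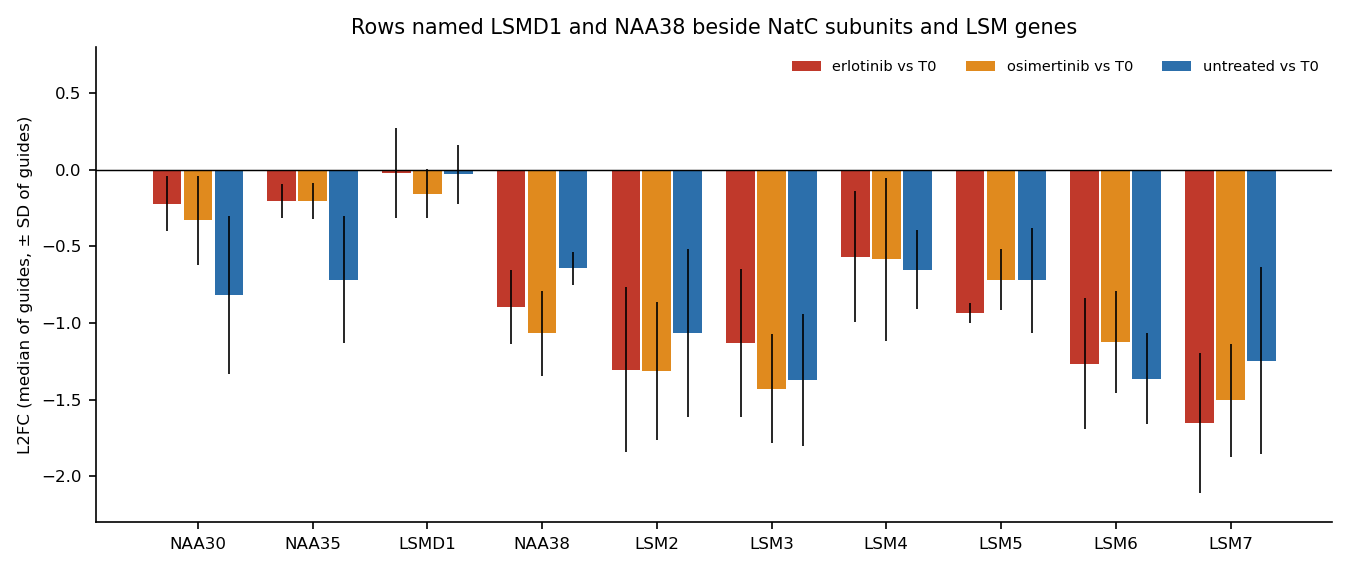
L2FC against T0 (vertical axis, median of guides, error bars ± SD between guides) for the NatC subunits, the rows named LSMD1 and NAA38, and LSM2 to LSM7 (horizontal axis), with erlotinib, osimertinib and no drug. NAA30 and NAA35 have the deepest bar without drug (-0.82 and -0.72), whereas the row named NAA38 has its shallowest there (-0.64).

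Enzymes that act before acetylation were examined next. Methionine aminopeptidases expose the residues that NatA modifies. METAP1 fell by 0.54 without drug and had an L2FC of 0.54 ± 0.33 with erlotinib and 0.52 ± 0.27 with osimertinib (adjusted p = 0.000306, 0.00223 and 0.00474). METAP2 gave -0.33 ± 0.18 without drug and 0.20 ± 0.19 with erlotinib (adjusted p = 0.0397), and the mitochondrial METAP1D gave -0.30 ± 0.15 and 0.08. Of the 6 genes for methionine removal and myristoylation, 2 were called higher with erlotinib (6.66% of all genes were) and 1 with osimertinib (4.78%). METAP1 passed against all targeting guides with both drugs, and METAP2 did not with erlotinib (adjusted p = 0.432). Without drug 5 of the 6 were lower than non-targeting guides, beside 66.2% of all genes. Against all targeting guides 0 of the 6 passed as lower without drug (METAP1 at an adjusted p of 0.147).

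NEDD8 conjugation is linked to these enzymes because the acetylated start of a NEDD8-conjugating enzyme is bound by DCUN1 proteins. Of 10 genes of that pathway, 5 were called higher with erlotinib (6.66% of all genes were) and 4 with osimertinib (4.78%). Against all targeting guides 4 and 3 passed, beside 1.81% and 0.631% of all genes. NAE1, one part of the enzyme that activates NEDD8, had an L2FC of -1.26 ± 0.35 without drug, 1.17 ± 0.29 with erlotinib and 0.79 ± 0.16 with osimertinib. UBE2F, a NEDD8-conjugating enzyme, had -0.80 ± 0.66, 0.68 ± 0.28 and 0.49 ± 0.18, and UBA3, the partner of NAE1, had -0.76 ± 0.69, 0.50 ± 0.75 and 0.33 ± 0.48 in the same order. DCUN1D1 (0.49 with erlotinib and 0.60 with osimertinib) and UBE2M (-0.08 and 0.05) were named after their values were seen.

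Genes for other steps around the nascent chain were counted in the same way. Of 8 genes for nascent chain handling, 7 were lower without drug (SRP19 at -1.49, SRP72 at -0.81 and NACA at -0.66), beside 66.2% of all genes. Against all targeting guides 2 passed, beside 3.63% of all genes. With erlotinib 1 of the 8 was called higher (6.66% of all genes). With osimertinib 1 was called higher (4.78% of all genes) and 1 lower (SRP19, -0.38, beside 4.88% of all genes). Of 14 genes for degradation through N-terminal signals, 11 were lower without drug (UBR4 at -0.61, ZYG11A at -0.40 and ZER1 at -0.38), beside the same 66.2% of all genes, with a median L2FC of -0.22, and none of the 14 passed against all targeting guides. With erlotinib 1 of the 14 was called lower (4.88% of all genes). With osimertinib 2 were called higher (ZER1 at 0.39, beside 4.78% of all genes) and 1 lower (4.88%). Of 10 genes that make, carry or use acetyl-CoA, the acetyl donor, 9 were lower without drug (SLC25A1 at -0.31 and COASY at -0.28), beside 66.2% of all genes. Their median was that of all genes (-0.17), and none passed against all targeting guides. ACACA, which consumes acetyl-CoA in fatty acid synthesis, was the 1 called lower with either drug, beside 4.88% of all genes with each drug. Its L2FC was -0.31 ± 0.11 with erlotinib (adjusted p = 0.00223, and 0.0632 against all targeting guides) and -0.54 ± 0.11 with osimertinib (adjusted p = 0.00474, and 0.0293 against all targeting guides).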

How the data were processed

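The deposited table held raw read counts per guide, made by the authors, who trimmed reads to the guide and mapped them to the TKOv3 library allowing 1 mismatch (their methods name Bowtie2, and the submitters' processing notes name Bowtie 1.3.1). It listed 71090 guides in 8 libraries, including 142 non-targeting guides. A spreadsheet had altered 50 gene names, of which 1 was left out and the others were restored. As in the study's methods, the lowest 5% of guides by mean were removed (normalised count under 45.84), leaving 67531 guides, of which 138 were non-targeting. Guide L2FC values came from edgeR 4.0.16 (glmQLFit, TMM scaling, all 8 libraries) in R 4.3.3. The gene value was the median over 2 or more guides minus the non-targeting median, and the two-sided empirical p compared it with 10000 draws of as many non-targeting guides (smallest p 1e-04), adjusted by Benjamini-Hochberg at 0.05. The spread behind this p is that between non-targeting guides, whereas limma uses that between libraries. Alternatives used DESeq2 1.42.0, limma 3.58.1, no filter, guide means, other reference guides, a replicate block and left-out libraries. Neighbouring genes and older names came from RefSeq (GRCh38.p14). The 2 libraries of a group are duplicates of a screen, and p-values may in part measure technical spread. Same-numbered libraries of different groups deviated independently (correlations -0.00 to 0.01), so numbers were not treated as pairs. The family and the gene lists were chosen with earlier results of these data known. Every member was named. Of each other list, the 3 genes with the largest L2FC past the threshold with erlotinib or without drug were named, and the 5 nearest genes were given for NAA10, NAA15, NAA20 and NAA35. The code was tested on simulated data.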

Additional observations from a re-analysis of the deposited data

Results flagged for a closer look

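The L2FC of NAA10 in erlotinib-treated against osimertinib-treated cells, 0.60, was marked because the 2 drugs' values differed in the direct comparison. Guides 2 and 4 gave 0.68 and 0.60 and guide 1 gave 0.01. The value was 0.61 against all targeting guides and 0.41 in limma on gene levels. It ranged from 0.41 to 0.85 when single libraries were left out, and from 0.31 to 0.85 over all alternatives. Since NAA10 chose the family, these values are a description.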

How the results depend on the processing

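No value of any of the 8 genes that had been called changed sign in the alternatives run. Of 132 alternative counts of called genes besides NAA10, 122 were within 1.5 times the reported count and 10 were not. The 1 gene called lower with erlotinib against untreated cells (NAA40) became 0 against all targeting guides, in limma on gene levels and in limma with guides centred (added after seeing the data), and ranged from 0 to 1 when single libraries were left out. For osimertinib against untreated cells the 4 called higher became 1 against all targeting guides and ranged from 1 to 4 with single libraries left out, and the 0 called lower ranged from 0 to 1. Against T0, the 7 called lower became 0 for erlotinib and 1 for osimertinib against all targeting guides. With the replicate number as a block the counts were unchanged: 7 lower without drug, 5 higher and 1 lower with erlotinib, 4 higher with osimertinib. With cytosolic ribosomal proteins as core genes, the growth-adjusted value of NAA10 with erlotinib was 0.67 in place of 0.81. The cause of these changes was not tested. Each gene value rested on 3 or 4 guides and 2 libraries per group, and single non-targeting guides had an SD of 0.11 to 0.16 (log2) in the 6 comparisons, so small differences may be missed.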
